A study of Rattus norvegicus with 10 samples.

Results

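The markers of the mural cells of blood vessels were followed in the cerebral cortex of rats after electroacupuncture (EA). They are 10 of the 32623 genes in the table. Pdgfrb, Rgs5, Vtn, Anpep, Notch3 and Higd1b mark pericytes, and Acta2, Tagln, Myh11 and Des mark smooth muscle. The members were taken by symbol, and each symbol had 1 row. All 10 passed the expression filter, which 15169 genes passed.

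RNA with poly(A) tails was sequenced from the cortex of adult male Sprague-Dawley rats, in 5 EA libraries and 5 control libraries. EA rats were needled at Baihui and Shuigou and received 3 mA at 2 and 100 Hz for 40 min. Control rats were given the same binding for 40 min, and neither needles nor current are described for them. All rats were anaesthetised with pentobarbital and their vessels were rinsed with saline before the cortex was stripped off. That each library is a separate rat is not stated outright, so the p-values measure the spread between libraries, and how cages and days fell across the groups is not stated either.

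Mural cells wrap the outside of brain vessels. Pericytes sit on capillaries within the basement membrane that they share with the endothelium, and they are known for their part in keeping the blood-brain barrier closed. Smooth muscle cells circle arteries and arterioles, and their actin and myosin set the width of the vessel. Recruitment of mural cells depends on PDGF-B, which the endothelium releases and the receptor Pdgfrb receives, and maturation of smooth muscle depends on Notch3.

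The deposited counts of each library summed to 55223193 to 61707722 in control rats and to 47843590 to 60941939 in EA rats. Genes of the mitochondrial genome held 38.2% to 46.7% of the summed FPKM, a level scaled by transcript length and library depth, in which genes can be compared with each other. The 8 neuronal markers were above 0 in every library, as cortex should show, and summed to 1522 to 2127 FPKM. EA 2 and EA 5 stood apart by structural RNA (small nuclear, nucleolar and other non-coding RNA), whose summed FPKM was 1986 and 2440 in them and 1074 to 1341 in the other libraries.

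The markers spanned a wide range of levels. Rgs5, a regulator that shortens G protein signals, was the most abundant, with a mean of 98.1 FPKM over the 10 libraries. Vtn, the adhesive matrix protein vitronectin (25.9 FPKM), and Tagln, the actin-binding protein transgelin (21.8 FPKM), came next, and Vtn lay above Tagln in 9 of 10 libraries. Acta2, smooth muscle actin, followed with 12.4 FPKM.

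Below Acta2, Higd1b, a small mitochondrial protein of the hypoxia-induced domain family (6.14 FPKM), Pdgfrb, the PDGF receptor (5.63 FPKM), and Myh11, smooth muscle myosin (5.12 FPKM), were close. Higd1b exceeded Pdgfrb in 7 libraries and Pdgfrb exceeded Myh11 in 6, so their order was not firm. Notch3, the Notch receptor of mural cells (3.58 FPKM), Des, the intermediate filament desmin (2.22 FPKM), and Anpep, the surface peptidase aminopeptidase N (1.503 FPKM), were lowest. Behind these levels stood 193 counts (Des in control 1) to 5656 counts (Rgs5 in control 1) per gene and library.

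The bases before the start of Acta2 and Vtn are shown because no other pair of markers varied so much alike from library to library. Both are 250 bases long, come from RefSeq (GRCr8) and run toward the start of the gene. Acta2 lies at chr1:241172504-241172753 on the minus strand, and Vtn at chr10:63892532-63892781 on the plus strand.
Acta2: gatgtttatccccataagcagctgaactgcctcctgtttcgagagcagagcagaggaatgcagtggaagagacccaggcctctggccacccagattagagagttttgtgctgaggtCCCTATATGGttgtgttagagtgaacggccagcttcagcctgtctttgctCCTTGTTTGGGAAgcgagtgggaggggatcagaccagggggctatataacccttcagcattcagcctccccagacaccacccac
Vtn: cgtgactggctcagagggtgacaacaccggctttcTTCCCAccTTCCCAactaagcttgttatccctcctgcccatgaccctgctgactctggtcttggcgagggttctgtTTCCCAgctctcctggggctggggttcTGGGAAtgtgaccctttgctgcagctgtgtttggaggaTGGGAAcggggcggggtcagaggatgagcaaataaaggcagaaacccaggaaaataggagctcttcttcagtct

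The capitals mark letters that match 2 motifs, searched on both strands. One is the CArG box bound by serum response factor, taken with up to 1 G or C among its 6 inner letters, and the other is TGGGAA, read on the opposite strand as TTCCCA, the core bound by the Notch effector Rbpj. Acta2 held 2 such CArG boxes, at -134 and -84 from the start, and 1 TGGGAA at -77 that overlaps the second box. Vtn held 5 matches of that core, counted on both strands, at -215, -207, -139, -112 and -74, and no CArG box.

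Among 33469 promoters of the same length, 8.08% held a CArG box of this kind, 1.497% held one with no G or C inside, and 22.1% held the Rbpj core. Promoters were matched for 6 of the 10 markers. Of the other 4, Anpep held 1 TGGGAA, at -61, and Rgs5, Notch3 and Des held neither motif. A match is a likeness of letters and shows no binding.

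Whether EA shifted the mural cell markers was asked first. None of the 10 markers passed the call, an adjusted p under 0.05 (edgeR quasi-likelihood test, Benjamini-Hochberg over 15169 genes) with a fold change above 1.2. That call took 3 of the 15169 genes tested, or 0.0198%. DESeq2 called 0 of the 10 against 1.09% of all genes, and limma also called 0.

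All 6 pericyte markers had a fitted log2 fold change below 0, with a median of -0.22. The smooth muscle markers had 2 below 0 and 2 above, with a median of -0.01. Over all genes tested the median was -0.00178, and 50.5% lay below 0. At an unadjusted p under 0.05 edgeR took 2 of the 10 markers, Notch3 and Vtn, both lower in EA. Over all genes 7.15% passed that threshold as lower and 6.59% as higher. In this bulk tissue, fewer cells of a type and less RNA per cell cannot be told apart.

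**Figure D1:**
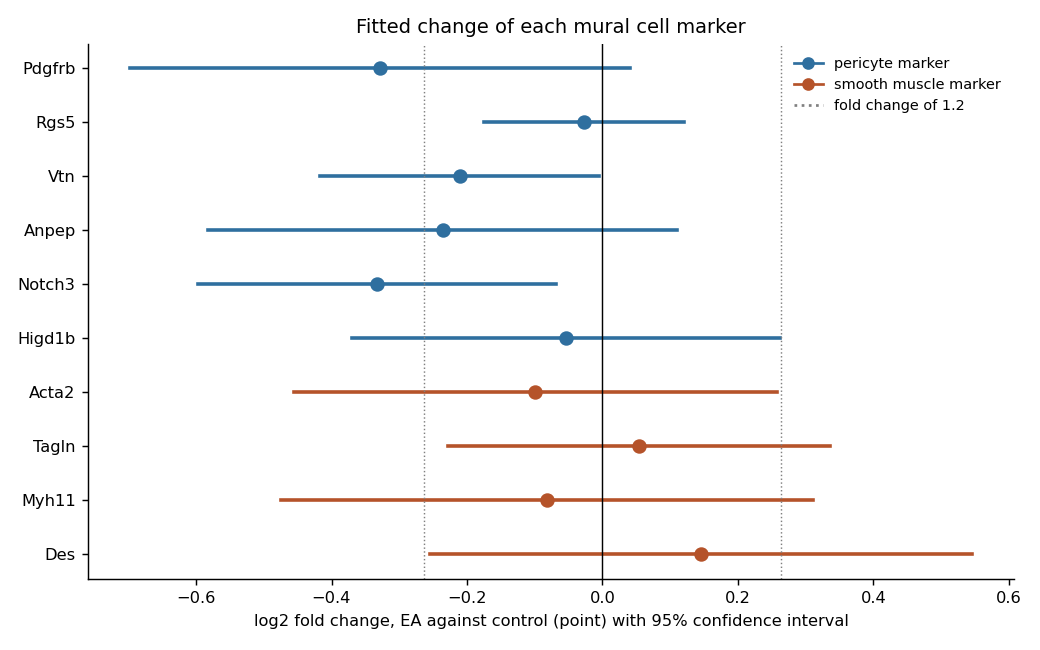
Fitted log2 fold change of EA against control for each marker (horizontal axis, point) with its 95% confidence interval (line), from edgeR with 5 libraries a group. The dotted lines stand at a fold change of 1.2. The intervals of Notch3 and Vtn lie below 0 and the other 8 include it.

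Notch3 carries the signal from Jagged ligands on endothelial cells into mural cells, and mutations in it cause a hereditary disease of small vessels. The gene (ENSRNOG00000004346) lies at chr7:14138495-14189688 on the minus strand of Rnor_6.0. It was measured at 3.65, 3.73, 4.56, 4.45 and 3.72 FPKM in control 1 to 5. In EA 1 to 5 it was at 3.34, 2.81, 3.89, 3.15 and 2.48 FPKM. Apart from EA 3, the EA libraries lay below the lowest control, so the groups overlapped through 1 library. The mean was 4.02 ± 0.44 FPKM in control and 3.13 ± 0.54 FPKM in EA (SD, n = 5 each), a log2 fold change of -0.33 ± 0.12 (SE) with an edgeR p of 0.0180 and an adjusted p of 0.266. DESeq2 gave an adjusted p of 0.117. A pair of little expressed genes of the table share 123 and 273 bases with it, at 0 and 0.109 FPKM.

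Vitronectin holds cells to the matrix through integrins, and in brain it is made mainly by pericytes. Vtn (ENSRNOG00000010031, chr10:65767053-65771038, plus strand) was measured at 24.8, 27.0, 27.2, 29.1 and 31.9 FPKM in control 1 to 5 and at 27.4, 22.4, 20.9, 27.9 and 20.5 FPKM in EA 1 to 5. EA 2, EA 3 and EA 5 lay below every control, while EA 1 and EA 4 lay among them. The mean was 28.0 ± 2.66 FPKM in control and 23.8 ± 3.57 FPKM in EA (SD, n = 5 each). The log2 fold change was -0.21 ± 0.09 (SE), with an edgeR p of 0.0460 and an adjusted p of 0.352.

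Pdgfrb is the receptor by which mural cells are drawn to new vessels. The gene (ENSRNOG00000018461, chr18:56364620-56406381, plus strand) was at 9.24, 5.21, 4.60, 5.90 and 6.58 FPKM in control 1 to 5. In EA 1 to 5 it was at 5.16, 4.02, 5.25, 4.87 and 5.48 FPKM. The groups overlapped, only EA 2 lay below every control, and control 1 stood highest by a wide gap. The log2 fold change was -0.33 ± 0.17 (SE; edgeR adjusted p = 0.418), close in size to that of Notch3 but with a wider interval, from -0.70 to 0.04. Leaving out control 1 brought it to -0.13.

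Aminopeptidase N clips small peptides at the cell surface. Anpep (ENSRNOG00000014610, chr1:141561334-141604273, minus strand) was measured at 1.47, 1.98, 1.36, 1.75 and 1.64 FPKM in control 1 to 5 and at 1.59, 1.14, 1.56, 1.53 and 1.01 FPKM in EA 1 to 5. EA 2 and EA 5 were the low libraries and the other 3 EA libraries lay within the control range. The log2 fold change was -0.24 ± 0.16 (SE; edgeR adjusted p = 0.549). Without EA 5 it was -0.14, and without EA 2 and EA 5 it was -0.035.

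Rgs5 was even across the cortices. The gene (ENSRNOG00000002730, chr13:87966758-88003035, plus strand) was at 112, 93.3, 94.1, 100.2 and 99.5 FPKM in control 1 to 5. In EA 1 to 5 it was at 92.9, 97.6, 104, 92.6 and 94.6 FPKM. Control 1 was the highest and the rest of the groups overlapped. With means of 99.8 ± 7.51 FPKM in control and 96.4 ± 4.87 FPKM in EA (SD, n = 5 each), its interval was the narrowest of the 10, from -0.18 to 0.12 around a log2 fold change of -0.03 (edgeR adjusted p = 0.898).

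Higd1b (ENSRNOG00000002814, chr10:90929423-90931639, plus strand) was at 7.38, 5.99, 6.44, 6.77 and 4.92 FPKM in control 1 to 5 and at 6.05, 5.91, 6.10, 6.96 and 4.84 FPKM in EA 1 to 5. Control 5 and EA 5 were the lowest of their groups, and the groups overlapped. Higd1b had a log2 fold change of -0.05 ± 0.15 (SE; edgeR adjusted p = 0.908).

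**Figure D2:**
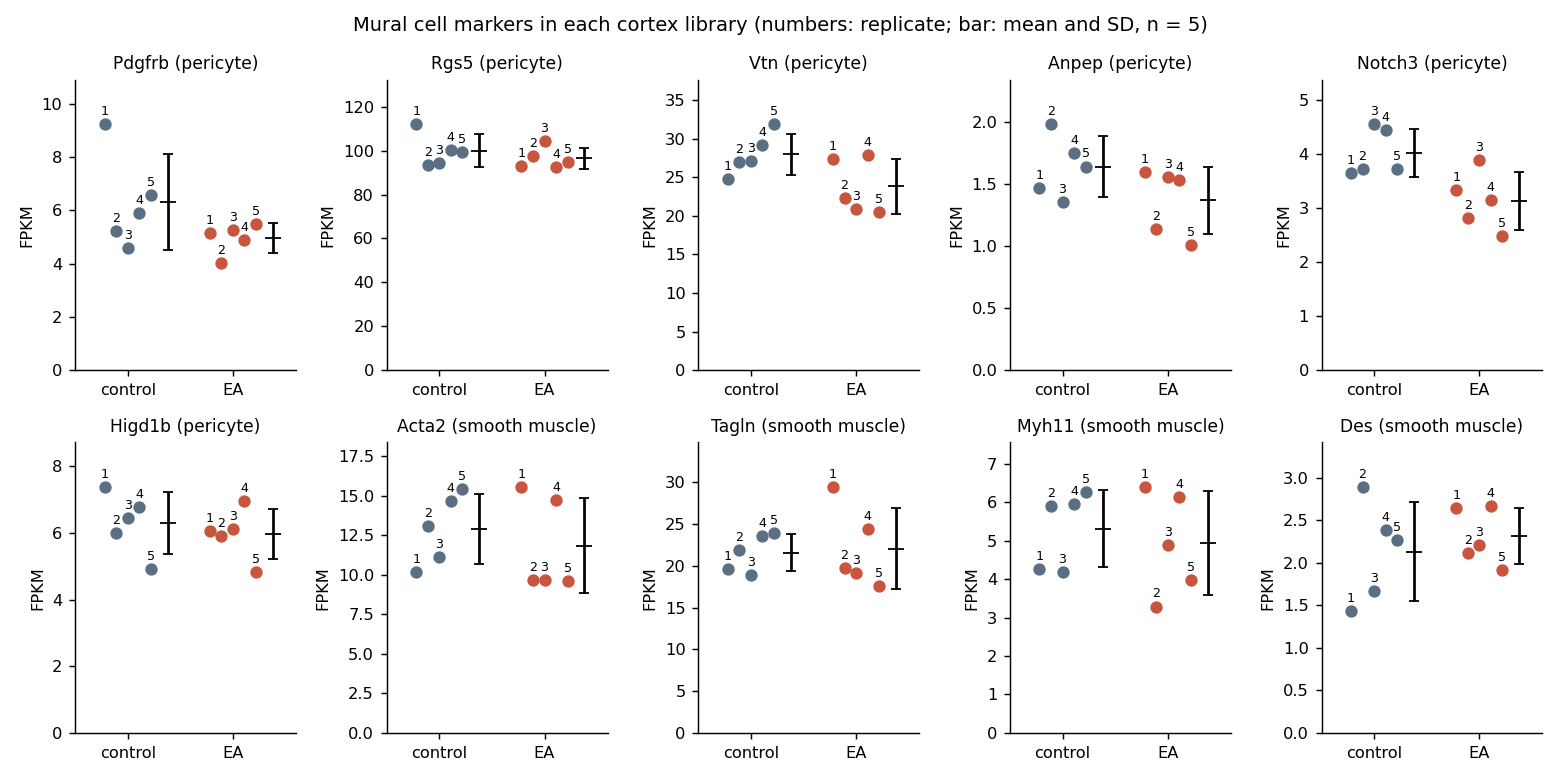
FPKM of each marker (vertical axis, from 0) in the 5 control and 5 EA libraries. Points are libraries with their replicate numbers, and the bar beside each group is the mean with its SD. EA 1 and EA 4 stand high for Acta2, Myh11 and Des, while Notch3 lies below all controls in 4 of 5 EA libraries.

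Acta2 forms the thin filaments of the contractile apparatus. The gene (ENSRNOG00000058039, chr1:252537615-252550394, minus strand) was measured at 10.2, 13.1, 11.1, 14.7 and 15.4 FPKM in control 1 to 5. In EA 1 to 5 it was at 15.6, 9.70, 9.67, 14.7 and 9.59 FPKM. EA 1 and EA 4 were as high as the higher controls, and EA 2, EA 3 and EA 5 lay below every control. Acta2 had a log2 fold change of -0.10 ± 0.16 (SE; edgeR adjusted p = 0.839).

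Transgelin binds and bundles actin in smooth muscle. Tagln (ENSRNOG00000017628, chr8:50222896-50231357, minus strand) was measured at 19.7, 21.9, 18.9, 23.5 and 23.9 FPKM in control 1 to 5 and at 29.5, 19.7, 19.1, 24.4 and 17.5 FPKM in EA 1 to 5. EA 1 and EA 4 lay above every control and EA 5 below, so the SD was 2.25 FPKM in control and 4.87 FPKM in EA. Its log2 fold change was 0.05 ± 0.13 (SE; edgeR adjusted p = 0.894). It shares 1019 bases on the same strand with Sidt2 (12.5 FPKM), so its reads in that stretch are uncertain.

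Myh11 is the motor of the thick filaments. The gene (ENSRNOG00000057880, chr10:764421-859184, plus strand) was at 4.26, 5.91, 4.18, 5.96 and 6.25 FPKM in control 1 to 5. In EA 1 to 5 it was at 6.40, 3.29, 4.87, 6.14 and 3.97 FPKM. Again EA 1 and EA 4 were the high EA libraries, and EA 2 and EA 5 lay below every control. For Myh11 the log2 fold change was -0.08 ± 0.18 (SE; edgeR adjusted p = 0.881).

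Desmin ties the contractile filaments of muscle cells together, and some pericytes also make it. Des (ENSRNOG00000019810, chr9:82556573-82564294, plus strand) was at 1.44, 2.90, 1.67, 2.38 and 2.27 FPKM in control 1 to 5 and at 2.65, 2.12, 2.21, 2.67 and 1.92 FPKM in EA 1 to 5. Every EA library lay within the control range. The log2 fold change was 0.15 ± 0.18 (SE), the highest of the 10 (edgeR adjusted p = 0.777), and its interval ran from -0.25 to 0.55. It was 0.043 without control 1 and 0.28 without control 2.

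None of the 10 markers separated the groups in FPKM, with all EA libraries below all controls, as 2.25% of the genes tested did. The intervals of the 4 smooth muscle markers held no differences below -0.47 (Myh11) or above 0.55 (Des) on the log2 scale. The narrowest of them, that of Tagln, ran from -0.23 to 0.34. With 5 libraries a group, differences within a marker's own interval could not be told from 0.

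The 2 kinds of marker were then set against each other within each library. The pericyte score, the mean log2(FPKM + 0.1) of the 6 pericyte markers, was 3.36, 3.22, 3.17, 3.33 and 3.24 in control 1 to 5 and 3.15, 2.93, 3.15, 3.15 and 2.87 in EA 1 to 5. The lowest control (3.17) lay just above the highest EA library (3.15), and EA 2 and EA 5 lay lowest. The means were 3.26 ± 0.08 in control and 3.05 ± 0.14 in EA (SD, n = 5 each), a difference of -0.21. On the same log2(FPKM + 0.1) scale the median change over all genes tested was -0.026. None of the 6 markers alone had all EA libraries below all controls. How often scores of other genes separate the groups was not tested.

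The smooth muscle score, formed in the same way from 4 markers, was 2.60, 3.09, 2.66, 3.09 and 3.11 in control 1 to 5. In EA 1 to 5 it was 3.25, 2.63, 2.77, 3.15 and 2.61. Both groups held high and low libraries, and the means differed by -0.03, less than the SD of 0.26 in control and 0.30 in EA. The smooth muscle score minus the pericyte score was -0.35 ± 0.27 in control and -0.16 ± 0.21 in EA (SD, n = 5 each). That difference of 0.19 was smaller than the spread between libraries. With Notch3 and Des left out, which both cell types make, it was 0.10.

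**Figure D3:**
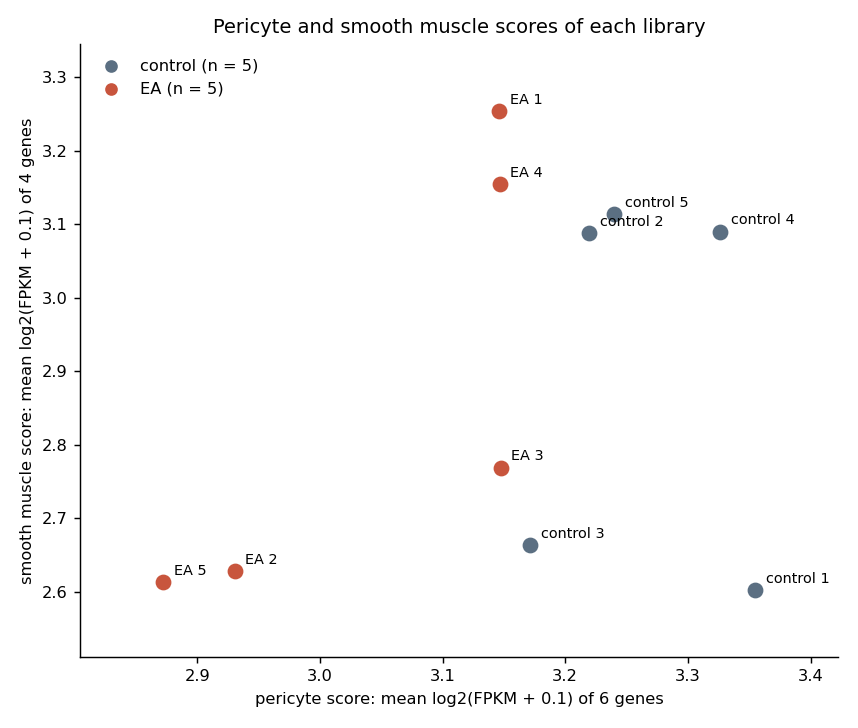
Smooth muscle score (vertical axis) against pericyte score (horizontal axis) of each library, both as mean log2(FPKM + 0.1), with each library labelled. The 5 EA libraries lie left of the 5 controls by a narrow gap, at 3.15 or less against 3.17 or more. On the vertical axis both groups run from about the lowest to the highest values.

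The libraries lowest in the pericyte score, EA 2 and EA 5, were those rich in structural RNA. Not every marker was lowest there, and Pdgfrb was highest of the EA libraries in EA 5 (5.48 FPKM). In the smooth muscle score, too, EA 2 and EA 5 were the lowest EA libraries. Leaving out both brought the median of the pericyte markers from -0.22 to -0.07 and that of the smooth muscle markers from -0.01 to 0.18, and no marker then had an unadjusted edgeR p under 0.05. Without EA 1 alone, the smooth muscle median was -0.13. The part of structural RNA in these values was not tested.

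Markers of neighbouring cells were read beside these scores. The 18 endothelial markers of the table summed to 289 to 307 FPKM in control and to 228 to 282 FPKM in EA, without overlap. The largest term of that sum was Slc2a1, with a mean of 113 FPKM over the 10 libraries. Taken singly, 3 of the 18 had all EA libraries below all controls, against 2.25% of all genes tested. All 18 had a log2 fold change below 0, with a median of -0.20, close to that of the pericyte markers. None was called by edgeR. At an unadjusted p under 0.05, where 7.15% of all genes were lower, 5 of the 18 were. Of these, Vwf, the clotting factor carrier of endothelium, had a log2 fold change of -0.50, Erg, an endothelial transcription factor, one of -0.50 and Tie1, a receptor of vessel walls, one of -0.46. Mfsd2a, a lipid carrier of brain endothelium, had -0.35 and Flt1, a receptor for the growth factor VEGF, had -0.22. DESeq2 gave adjusted p-values of 0.000759 for Vwf, 0.00360 for Tie1 and 0.0223 for Erg. Among the endothelial markers only Robo4 was listed at 0 in some library.

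The 12 fibroblast and meningeal markers of the table varied widely within both groups. They summed to 52.6 to 112 FPKM in control and to 43.6 to 115 FPKM in EA, and only Ogn was listed at 0 in some library. The controls high in the smooth muscle score (2, 4 and 5) were also the high ones here, with 76.6, 101 and 112 FPKM, against 58.3 and 52.6 FPKM in control 1 and 3. EA 1 and EA 4, the high EA libraries of the smooth muscle score, held 82.7 and 115 FPKM, and EA 2, EA 3 and EA 5 held 43.6, 53.9 and 64.0 FPKM. In these markers 10 of 12 genes lay below 0, with a median of -0.12, and 0 had an unadjusted p under 0.05. The lowest edgeR p belonged to Col1a1, a collagen, at 0.163. The part of meningeal tissue in the smooth muscle values was not tested.

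Of the genes of red blood cells, Hbb, a globin chain, had a log2 fold change of -1.28 (edgeR adjusted p = 0.261). The 5 genes of red blood cells summed to 7.68 to 43.0 FPKM in control and to 6.30 to 15.9 FPKM in EA. Of these, Alas2 and Slc4a1, which make haem and carry anions in red cells, were listed at 0 in some libraries. The part of remaining blood in the marker values was not tested.

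Among the other cells of the cortex, all 8 oligodendrocyte markers lay below 0 (median -0.17 on the log2 scale). Of them, 3 had an unadjusted edgeR p under 0.05, where 7.15% of all genes were lower. Astrocyte markers had a median of 0.02, and 1 of 9, Fgfr3, was lower at that threshold (-0.19). Neuronal markers had a median of 0.03, and 2 of 8, Gad1 (0.15) and Gad2 (0.19), were higher. Microglial markers had a median of -0.03 and 0 of 9 at that threshold. None of these genes was called by edgeR.

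**Figure D4:**
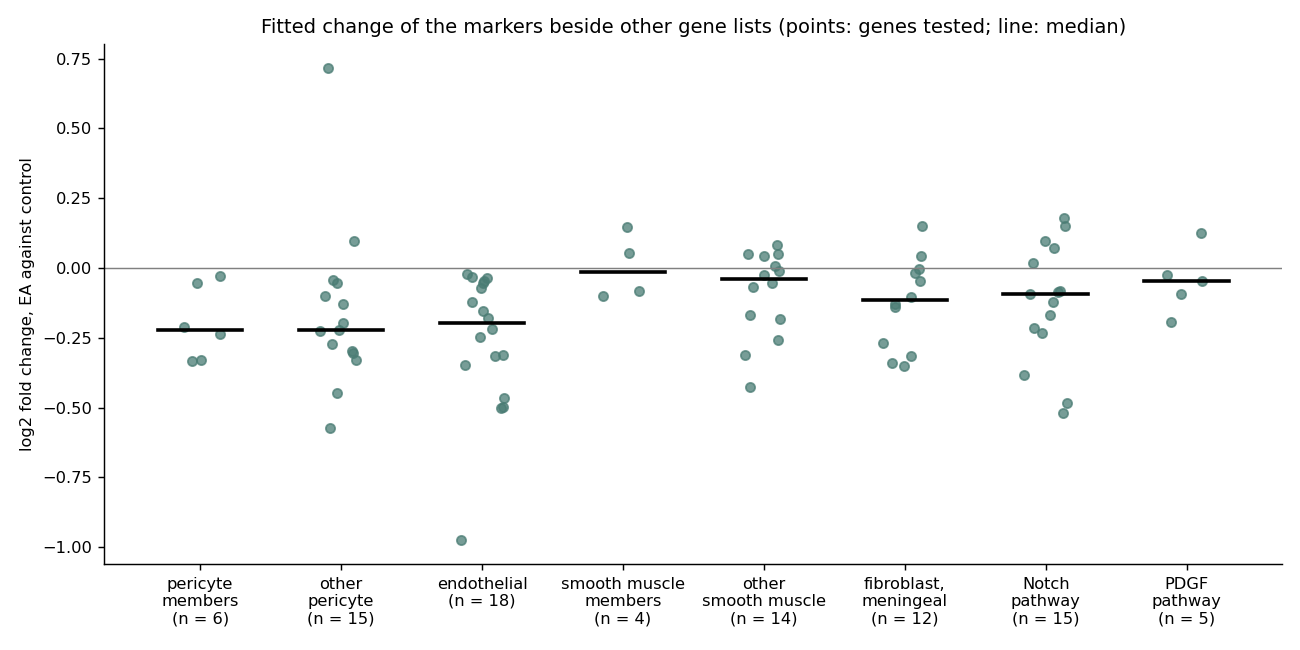
Fitted log2 fold change of EA against control (vertical axis, edgeR) for the genes tested in each list, with 1 point per gene and a line at the median. Pericyte markers, other pericyte genes and endothelial markers have medians near -0.20, and the smooth muscle lists have medians of -0.01 and -0.04.

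Other genes of pericytes were read beside the members. Of 16 such genes 15 were tested, 13 of them lay below 0, and the median was -0.22. At an unadjusted p under 0.05 edgeR took 3 as lower and 1 as higher, and called 0. Of all genes tested, 7.15% were lower and 6.59% higher at that threshold. Ebf1, a transcription factor of mural cells, had a log2 fold change of -0.57 (edgeR adjusted p = 0.183, DESeq2 adjusted p = 0.0426). Kcnj8, a subunit of the potassium channel of pericytes, had -0.33 and Cspg4, the proteoglycan NG2, had -0.22. Cd248, the surface protein endosialin, went the other way at 0.72.

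Of 19 other genes of smooth muscle 14 were tested, 9 lay below 0, the median was -0.04, and 0 had an unadjusted edgeR p under 0.05. The lowest p belonged to Pcp4l1, at a log2 fold change of -0.17, and to Ppp1r14a, an inhibitor of myosin phosphatase, at -0.43. Cnn1, Myocd, Casq2, Jph2 and Kcnmb1 did not pass the filter.

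The ligands and partners of the receptors among the markers were examined next. Of the 5 PDGF genes, 0 had an unadjusted edgeR p under 0.05. Pdgfb, the ligand of Pdgfrb, was at 12.1 ± 1.45 FPKM in control and 11.7 ± 0.93 FPKM in EA (SD, n = 5 each), a log2 fold change of -0.02. Pdgfd, the other ligand of that receptor, had -0.19 and Pdgfra, the receptor of oligodendrocyte precursors, had -0.09.

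All 15 other Notch genes were tested and 10 of them lay below 0, with a median of -0.09. At an unadjusted edgeR p under 0.05, 3 were lower and 0 higher (7.15% and 6.59% of all genes), and none was called. The ligand Jag1 had a log2 fold change of -0.48, the endothelial receptor Notch4 one of -0.38 and Notch1 one of -0.23 (edgeR adjusted p from 0.233 to 0.341). Rbpj, the factor that carries their signal to DNA, had 0.07. Of the 6 target genes in the list, Hes5 had -0.52, with an edgeR adjusted p of 0.413 and the largest fitted change of the list. Hey2 had -0.22, Hey1 -0.12, Heyl -0.09, Hes1 -0.08 and Nrarp 0.02. Notch2, with -0.17, had an unadjusted edgeR p of 0.0518.

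Contractile genes are controlled through serum response factor and through the phosphorylation of myosin. Of 10 genes of that control tested, 9 lay above 0, with a median of 0.03. At an unadjusted edgeR p under 0.05, where 6.59% of all genes were higher, 3 were higher and 0 lower. These were Ppp1r12a and Ppp1cb, subunits of myosin phosphatase, with log2 fold changes of 0.15 and 0.11, and Rock2, a kinase that inhibits it, with 0.14. Rhoa, the switch upstream of Rock2, had 0.05, and no gene of the list was called. These genes serve cells of many kinds, and Ppp1cb was at 89.8 FPKM where Acta2 was at 12.4 FPKM.

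The actins of other cells, Actb and Actg1, were at 477 and 411 FPKM and had log2 fold changes of -0.10 and 0.01, and Acta1, the skeletal muscle actin, had 0.03. Of 7 genes of vessel tone tested, Pde5a, which degrades cyclic GMP in smooth muscle, had the lowest p, with a log2 fold change of -0.27 (edgeR adjusted p = 0.302). Adora2a, an adenosine receptor, had -0.28. Gucy1b1 and Gucy1a1, the subunits of the nitric oxide receptor, had 0.14 and 0.12.

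The integrin subunits Itgb5 and Itgav, which bind vitronectin, had log2 fold changes of -0.11 and -0.01. Among 6 genes read beside desmin, the filament gene Nes had a log2 fold change of -0.32 (edgeR adjusted p = 0.311). Of 5 surface peptidases and their substrates read beside Anpep, Ace, which makes angiotensin II, had -0.36 (edgeR adjusted p = 0.274) and Agt, the precursor of angiotensin, had -0.24 (edgeR adjusted p = 0.262). Of 6 relatives of Rgs5, only Rgs2, which curbs the signals of constrictor hormones, had an unadjusted edgeR p under 0.05. Its log2 fold change was 0.31 (edgeR adjusted p = 0.183, DESeq2 adjusted p = 0.0270). All EA libraries lay above all controls in FPKM, as in 129 of the 15169 genes tested.

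How the markers varied together between libraries was examined after the mean of each group had been removed. Each relation is a correlation over 10 libraries, and all genes of a library share its depth, scaling and dissection. The 6 pairs of smooth muscle markers all had a Pearson r above 0, from 0.67 to 0.94, with a median of 0.80. The 15 pairs of pericyte markers ran from -0.48 to 0.72, with a median of 0.12. The 24 mixed pairs had a median of 0.15.

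Of all 45 pairs, 6 had an adjusted p under 0.05 for Pearson's r (permutation within groups, 100000 resamples, Benjamini-Hochberg over 45 pairs) and 1 for Spearman's rho. None of the 6 joined a pair of pericyte markers, 3 joined smooth muscle markers and 3 joined a pericyte marker to a smooth muscle marker. When each library was left out in turn, 0 pairs passed in 7 of the 10 cases, and 1, 3 and 4 passed without control 1, EA 2 and control 3.

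The strongest relation was that of Vtn with Acta2, whose promoters are printed above. Pearson's r was 0.951 (permutation p = 0.00125, adjusted p = 0.0281) and Spearman's rho 0.939 (permutation p = 0.00104, adjusted p = 0.0468). Without EA 1 and EA 4, the libraries farthest from the median of Vtn, r was 0.869. This pair, too, missed the adjusted threshold in at least 7 of the 10 cases with a library left out. Within the 5 controls r was 0.911 and within the 5 EA libraries 0.971. Vtn, placed with the pericyte markers, thus varied with smooth muscle actin. The next pericyte marker in its relation to Acta2, Anpep, had an r of 0.65. With Myh11 and Des, Anpep had the higher r, 0.833 and 0.791 against 0.764 and 0.617 for Vtn. Of those pairs only Anpep and Des passed the adjusted threshold.

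Acta2 and Tagln had an r of 0.939 (permutation p = 0.00092, adjusted p = 0.0281) and a rho of 0.842 (adjusted p = 0.102), and r was 0.887 without EA 1 and EA 4. Vtn and Tagln had an r of 0.890 and a rho of 0.855 (permutation, adjusted p = 0.0401 and 0.102), and r was 0.803 without EA 1 and EA 4. Acta2 and Myh11 had an r of 0.894 and a rho of 0.818 (permutation, adjusted p = 0.0401 and 0.102), and r was 0.769 without the same libraries. EA 1 and EA 4 were the EA libraries highest in all of these genes, and control 4 and control 5 were high in each of them too.

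Anpep and Des had an r of 0.791 and a rho of 0.818 (permutation, adjusted p = 0.0401 and 0.102), and Myh11 and Des had 0.777 and 0.770 (permutation, adjusted p = 0.0401 and 0.102). Without the 2 libraries farthest from the median, r was 0.752 and 0.856. Pdgfrb and Rgs5, the pericyte pair with the highest r (0.718, rho 0.503, permutation adjusted p = 0.184 and 0.496), had 0.210 without control 1 and control 3. Rgs5 had an r below 0 with all 4 smooth muscle markers, from -0.57 with Des to -0.32 with Myh11. None of these pairs passed (permutation adjusted p from 0.383 to 0.698). Without control 1 and EA 3 their r ran from -0.219 with Myh11 to -0.048 with Tagln.

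**Figure D5:**
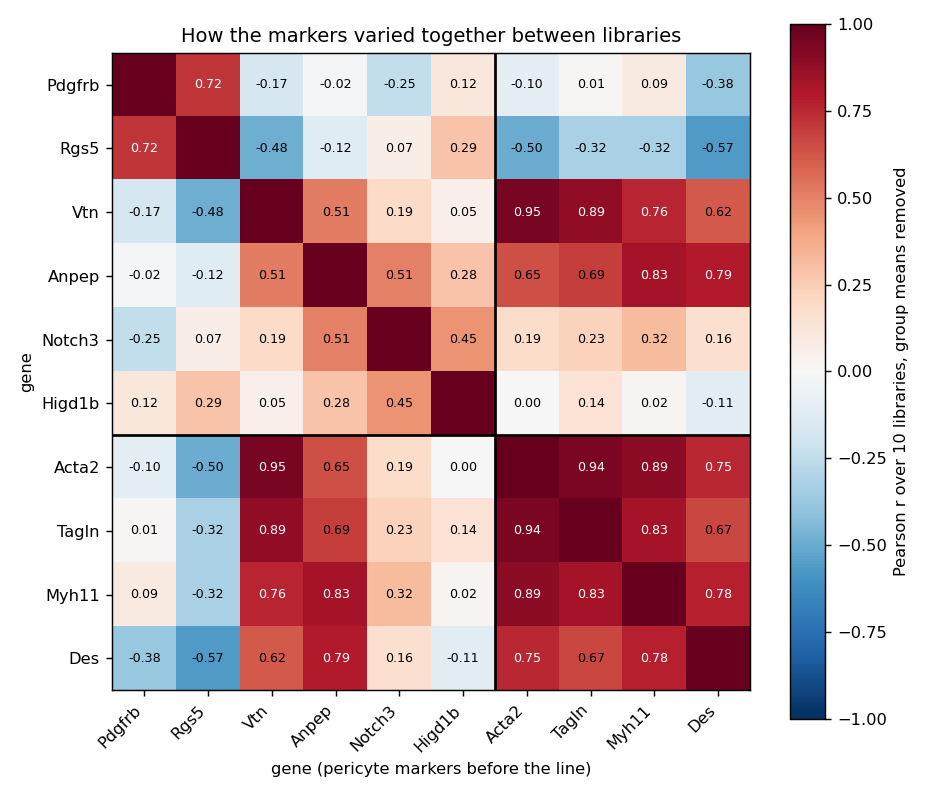
Pearson r between each pair of markers over 10 libraries after the mean of each group was removed, with pericyte markers before the black line and smooth muscle markers after it. Red cells are above 0 and blue cells below. The smooth muscle block is red throughout, at 0.67 or more. Vtn (0.62 to 0.95) and Anpep (0.65 to 0.83) are red with all 4 smooth muscle markers.

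The genes most like each score were sought among 13800 genes with a mean of at least 1 FPKM, again over 10 libraries with group means removed. For the smooth muscle score these were Slc19a1, a folate carrier (r = 0.959), Col6a2, a collagen VI chain (0.955), Bgn, the proteoglycan biglycan (0.953), and Mmp14, a membrane protease of the matrix (0.944). For the pericyte score they were Timm9, a chaperone of mitochondrial import (0.928), Zfp641, a zinc finger gene (0.923), AABR07007121 (0.902) and Pmp22, a myelin protein (0.902). These are the highest of many, so they are given without a test.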

How the data were processed

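Poly(A) RNA of rat cerebral cortex was sequenced as stranded paired reads in 5 EA and 5 control libraries, grouped by their labels. The authors aligned reads to Rnor_6.0, assembled transcripts and computed FPKM with ballgown. Their notes list StringTie 1.3.0, Bowtie 0.12.2 and HISAT2 2.0. The deposited FPKM were used for levels (0.0001 stands for 0). The estimated counts, deposited by the authors as whole numbers, add up to more than the reads. Neither their derivation nor the use of strand is stated.

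The members and lists were chosen with earlier results of these data known. Genes were kept that reached 0.5 FPKM in 5 or more of the 10 libraries (15169 of 32623, 99.9% of counts). Estimated counts were compared with edgeR 4.0.16 (TMM, quasi-likelihood F test, two-sided, Benjamini-Hochberg over all genes tested). The SE is the size of the log2 fold change divided by the root of F, with 95% intervals. DESeq2 1.42.0 and limma 3.58.1 on log2(FPKM + 0.1), in R 4.3.3, were alternatives, with other filters, scalings, pseudocounts, a robust fit, left-out libraries and a replicate block. Permutations were two-sided, with numpy 2.4.6 and scipy 1.17.1 in Python 3.11.15. Scripts were tested on simulated data. Of 50 genes changed 1.2-fold there, edgeR found 10% and DESeq2 26%, where the call itself asks for a fold above 1.2. Of 50 genes changed 1.5-fold they found 54% and 70%. False calls among the unchanged genes numbered 4 with edgeR and 29 with DESeq2.

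Named genes were all members, up to 4 of each other list with the lowest edgeR p, and the 4 genes most like each score. Pdgfb, Rbpj, the Notch targets, Mfsd2a, Itgav and genes that did not pass the filter were named after their values were seen. The lists hold 180 other genes, of which 173 are in the table. 1 gene of these lists is not reported here.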

Additional observations from a re-analysis of the deposited data

How the results depend on the processing

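No marker was called under any alternative. Over all settings run (other scalings, filters, tools, pseudocounts, a replicate block and left-out libraries), the log2 fold changes of Pdgfrb, Vtn, Anpep, Notch3 and Des kept their sign, with Notch3 between -0.43 and -0.18, Vtn between -0.27 and -0.11, Pdgfrb between -0.42 and -0.13, Anpep between -0.30 and -0.035 and Des between 0.043 and 0.28. The lowest adjusted p was 0.117, for Notch3 in DESeq2. The count of genes called over the whole table was 3 by edgeR, 166 by DESeq2, 0 with the replicate block, and 1 to 5 with each library left out in turn. Whether the replicate numbers pair libraries is not stated. Same-numbered libraries correlated by 0.0047 to 0.0661 after group means were removed, and only control 2 had its highest correlation with its own number. With the block 1 marker had an unadjusted p under 0.05, against 2 without it.

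Leaving out EA 2 and EA 5 brought the median of the pericyte markers to -0.071, that of the smooth muscle markers from -0.014 to 0.18, and turned Higd1b to 0.048, Acta2 to 0.079 and Myh11 to 0.16. Leaving out each library in turn gave ranges of -0.066 to 0.031 for Rgs5, -0.13 to 0.024 for Higd1b, -0.070 to 0.13 for Tagln and -0.19 to 0.034 for Myh11. The cause was not tested. With each library left out in turn, 0 to 4 pairs of markers passed the adjusted p of r (0 in 7 of 10 cases), against 6 with all. The smooth muscle minus pericyte score difference ran from 0.06 (median over markers) to 0.26 (without EA 2 and EA 5).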
